A study of Mus musculus with 2 samples.

Results

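Sox genes of groups B to E encode the transcription factors that mark successive states of a neural cell. They were measured by total RNA sequencing of the neural tube, from which the brain and spinal cord form, in B6NCrl mouse embryos of day 14.5. The set held 10 genes of 43346 gene rows: Sox11, Sox4 and Sox12 of group C, Sox9, Sox8 and Sox10 of group E, Sox5 and Sox6 of group D, Sox21 of group B2 and Sox2 of group B1. They were chosen by symbol, matched through the gene identifier without its version, with no measured value used, and all 10 were found. The data were 2 libraries of 1 group. Replicate 2 was 1 tube, from pup 1 of pregnant mouse 2, and replicate 1 was likewise pup 1 of pregnant mouse 1, with 10 ng of RNA and added spike-in RNA in each library. Although each library is labelled as a single tube, its sex label reads as a pool of both sexes. With 1 group and no contrast between conditions, levels are given per library with mean ± SD (n = 2) and no p-value.

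Sox proteins bind DNA through an HMG box, a domain that bends the double helix, and are sorted into groups by the sequence of that box. In the developing neural tube, group B1 factors keep cells as dividing progenitors, group C factors switch on genes of young neurons, and group E factors direct the switch to glia and the neural crest lineages. Group D factors lack a transactivation domain of their own and modulate the others, for instance by restraining group E factors in oligodendrocyte precursors.

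The stretch of coding sequence most alike across the set lay at the start of the HMG box and is shown because it is what makes these genes one family. It was found as the 60-base window of the Sox2 coding sequence with the highest summed identity to its best in-frame match in each of the other genes, in GENCODE transcripts of GRCm38. Each line reads 5′ to 3′ on the coding strand, and capitals mark the positions that were identical in all 10 genes.
Sox11 (chr12:27342208-27342267, - strand): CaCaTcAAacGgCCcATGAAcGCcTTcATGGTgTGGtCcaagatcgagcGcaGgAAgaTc
Sox4 (chr13:28952791-28952850, - strand): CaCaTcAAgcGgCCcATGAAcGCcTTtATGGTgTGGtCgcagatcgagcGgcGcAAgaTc
Sox12 (chr2:152397525-152397584, - strand): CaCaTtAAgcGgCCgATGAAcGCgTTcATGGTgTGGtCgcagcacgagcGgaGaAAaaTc
Sox9 (chr11:112782894-112782953, + strand): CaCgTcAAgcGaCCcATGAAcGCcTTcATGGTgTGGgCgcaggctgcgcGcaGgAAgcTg
Sox8 (chr17:25570172-25570231, - strand): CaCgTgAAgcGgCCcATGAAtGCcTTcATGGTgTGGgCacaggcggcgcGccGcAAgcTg
Sox10 (chr15:79163351-79163410, - strand): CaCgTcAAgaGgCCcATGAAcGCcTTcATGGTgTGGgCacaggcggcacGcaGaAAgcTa
Sox5 (chr6:143841223-143841282, - strand): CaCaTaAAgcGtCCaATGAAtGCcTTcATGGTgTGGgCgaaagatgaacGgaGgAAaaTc
Sox6 (chr7:115489712-115489771, - strand): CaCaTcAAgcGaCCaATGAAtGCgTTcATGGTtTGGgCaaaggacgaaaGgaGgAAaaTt
Sox21 (chr14:118235558-118235617, - strand): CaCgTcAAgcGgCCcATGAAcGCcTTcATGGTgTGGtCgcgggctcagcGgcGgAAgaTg
Sox2 (chr3:34650539-34650598, + strand): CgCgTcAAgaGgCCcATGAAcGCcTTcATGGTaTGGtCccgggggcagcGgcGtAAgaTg

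Of the 60 positions, 31 were identical in all 10 genes. They fell unevenly over the 20 codons, with 11 at the first codon base, 16 at the second and 4 at the third. Over a longer window of 210 coding bases, pairs of the same group shared 82.9% to 90.5% of bases (median 84.3%, 7 pairs). Pairs of different groups shared 53.3% to 88.1% (median 67.8%, 38 pairs). Sox11 and Sox4 were the closest pair of 1 group at 90.5%. The closest pair of different groups was Sox21 and Sox2 at 88.1%, a B2 and a B1 gene. The longest exact run that 2 member transcripts shared anywhere was 48 bases, between Sox11 and Sox4. Reads shorter than such a run could come from either gene, and no source used here gives the read length. The estimated counts of 8 members were whole numbers in both libraries (within 0.005), as they are when no read is divided between genes. Sox4 and Sox21 had fractional counts.

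**Figure D1:**
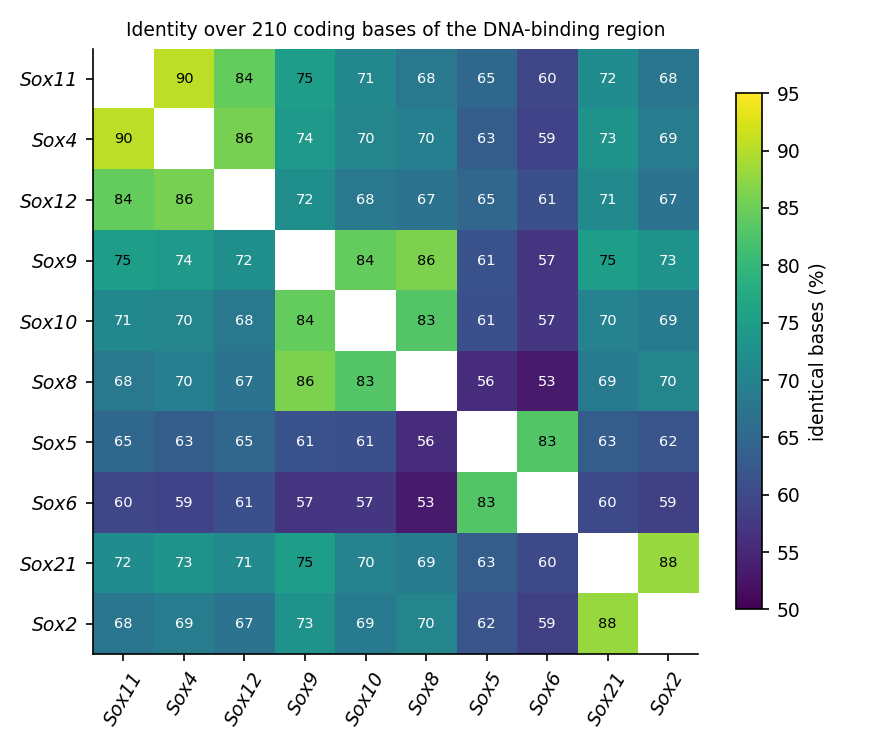
Heat map of the percent of identical bases over 210 aligned coding bases for each pair of the 10 Sox genes, ordered by group C, E, D, B2 and B1 on both axes, with the colour scale running over 50% to 95%. Bright blocks of 82.9% to 90.5% lie along the diagonal for groups C, E and D, and Sox21 with Sox2 (88.1%) is as bright as those blocks.

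All 10 genes reached 1 TPM in both libraries, as did 60.8% of the 21474 protein-coding genes, and all 10 also reached 5 TPM, as did 48.8%. TPM is a level per length, scaled to the same sum in each library, that allows genes to be set beside each other. The mean levels ran over a wide range, highest in Sox11 and lowest in Sox21. The level of a gene in bulk tissue joins the number of cells that express it and the RNA per cell, and fewer cells of a type cannot be told apart from less RNA per cell. Expected counts over gene rows totalled 25428747 in replicate 2 and 32255363 in replicate 1. The markers of neurons (8 of 8 genes at 1 TPM or more in both libraries, summed level 3729.4 TPM in replicate 2 and 3789.28 TPM in replicate 1) and of neural progenitors (12 of 12, 2498.77 and 2304.5 TPM in the same order) were present.

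**Figure D2:**
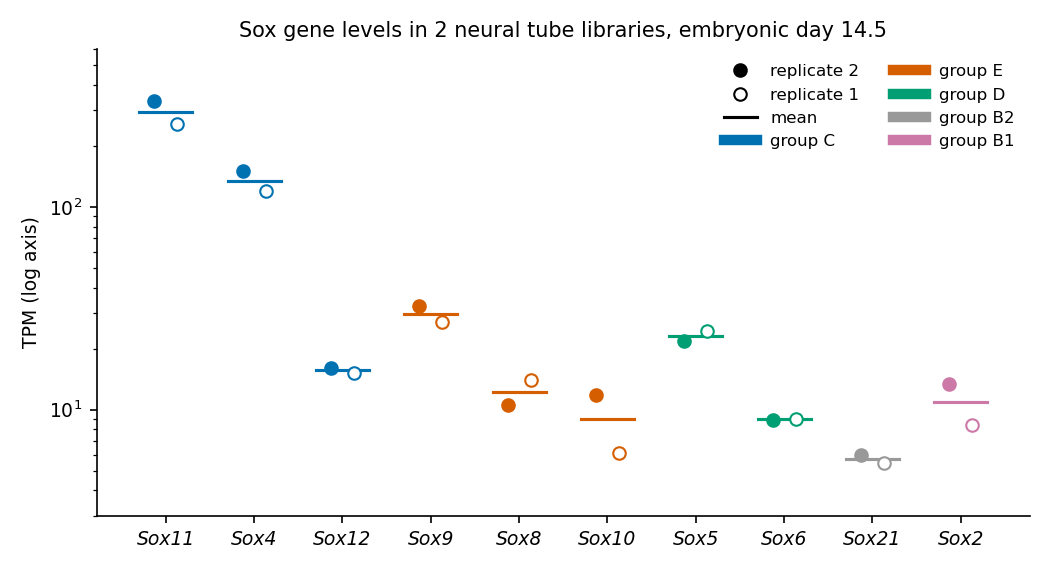
TPM of the 10 Sox genes on a log axis, with replicate 2 as filled points, replicate 1 as open points and the mean of the 2 libraries as a bar, coloured by Sox group. Sox11 and Sox4 lie above 100 TPM in both libraries and the other 8 genes at 32.36 TPM or less, and the points of Sox10 and Sox2 lie far apart from each other while those of Sox6 nearly coincide.

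Group C held the highest levels of the set. Sox11 (ENSMUSG00000063632.6, chr12:27334264-27342574, 1 exon) drives the expression of pan-neuronal genes in newborn neurons. It was at 334.96 TPM in replicate 2 and 256.02 TPM in replicate 1, a mean of 295.5 ± 55.8 TPM (SD, n = 2). It ranked 380 and 516 among protein-coding genes in replicate 2 and replicate 1, and its mean lay above that of 98.0% of them. Sox4 (ENSMUSG00000076431.4, chr13:28948919-28953713, 1 exon), which overlaps with Sox11 in function and promotes neuronal differentiation and survival, was at 150.15 TPM in replicate 2 and 119.30 TPM in replicate 1 (134.7 ± 21.8 TPM, SD, n = 2). Both genes were higher in replicate 2, and the lower library of Sox11 still exceeded the higher library of Sox4.

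Sox12 (ENSMUSG00000051817.8, chr2:152393611-152398063), the weakest activator of the group in reporter assays, was at 16.10 TPM in replicate 2 and 15.25 TPM in replicate 1 (15.7 ± 0.601 TPM, SD, n = 2). The level of Sox11 was 20.8 times that of Sox12 in replicate 2 and 16.8 times in replicate 1. Sox11 was 2.23 times Sox4 in replicate 2 and 2.15 times in replicate 1, a ratio that moved little between the pups. Within group C, Sox11 gave 66.8% and 65.6% of the summed TPM, Sox4 30.0% and 30.5% and Sox12 3.2% and 3.9%, in replicate 2 and replicate 1 in each case.

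A long non-coding gene on the opposite strand, Gm26735, has an exon that overlaps the exon of Sox4. It was listed at 37.77 TPM in replicate 2 and 39.45 TPM in replicate 1, and the fractional counts of Sox4 (10555.31 and 11352.61) are what results when reads are divided between genes. Gm26735 had 1441.69 counts in replicate 2 and 2038.39 in replicate 1, whose fractions make whole numbers with those of Sox4. No source used here gives the strand setting of the counting, so reads of Sox4 and of this antisense gene may not have been told apart. How the reads were divided was not tested. The corresponding partner of Sox21, Gm4675, was at 0.49 TPM in replicate 2 and 0.79 TPM in replicate 1. An antisense gene over an exon of Sox8, 2810468N07Rik, was at 4.33 TPM in replicate 2 and 4.07 TPM in replicate 1. Each of these antisense genes was listed below its Sox partner in both libraries.

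Group E included the third highest gene of the set. Sox9 (ENSMUSG00000000567.5, chr11:112782224-112787760, 3 exons), which triggers the change of progenitors from making neurons to making glia, was at 32.36 TPM in replicate 2 and 27.22 TPM in replicate 1 (29.8 ± 3.63 TPM, SD, n = 2). Sox8 (ENSMUSG00000024176.6, chr17:25565892-25570686, 3 exons), which backs up the other group E factors in glia, was at 10.53 TPM in replicate 2 and 13.96 TPM in replicate 1 (12.2 ± 2.42 TPM, SD, n = 2). Sox10 (ENSMUSG00000033006.9, chr15:79154908-79165240, 4 exons), which is required for oligodendrocyte maturation and for Schwann cells and other crest derivatives, was at 11.83 TPM in replicate 2 and 6.10 TPM in replicate 1 (8.96 ± 4.05 TPM, SD, n = 2). Sox9 was the highest of the group in both libraries, whereas Sox8 and Sox10 changed places.

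Sox10 over Sox8 was 1.12 in replicate 2 and 0.437 in replicate 1. As log2 values these ratios were 0.17 and -1.19, a mean of -0.51 with an SD of 0.96, so the order of Sox8 and Sox10 was not settled by 2 libraries. Within group E, Sox9 gave 59.1% and 57.6% of the summed TPM in replicate 2 and replicate 1. Sox10 gave 21.6% in replicate 2 and 12.9% in replicate 1. Sox8 gave 19.2% in replicate 2 and 29.5% in replicate 1.

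Of the group D genes, Sox5 (ENSMUSG00000041540.12, chr6:143828425-144781977), which controls the timing of progenitor exit and neuronal subtype choice and restrains oligodendrocyte maturation, was at 21.76 TPM in replicate 2 and 24.40 TPM in replicate 1 (23.1 ± 1.87 TPM, SD, n = 2). Sox6 (ENSMUSG00000051910.9, chr7:115470872-116038796), which acts with Sox5 in oligodendrocyte precursors, was at 8.90 TPM in replicate 2 and 9.00 TPM in replicate 1 (8.95 ± 0.071 TPM, SD, n = 2). At the level of the gene, Sox5 was 2.44 times Sox6 in replicate 2 and 2.71 times in replicate 1.

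The transcript tables gave another order for these genes. Sox5 has 14 transcripts in the tables, and its complete coding transcripts, those with an annotated start and stop codon and at least 1000 bases, summed to 3.90 TPM in replicate 2 and 5.42 TPM in replicate 1. That was 17.9% and 22.2% of the gene's TPM, although these transcripts held 59.7% and 68.9% of its expected counts. The leading row was Sox5-208, a non-coding processed transcript of 351 bases, with 22.98% of the gene's TPM in replicate 2 and 29.47% in replicate 1. Only 2.7% and 3.3% of the gene's counts stood behind it, since a count weighs more per length in a short transcript. The longest-coding form, Sox5-201 of 7243 bases, was at 3.49 TPM in replicate 2 and 3.50 TPM in replicate 1 and held 53.5% and 44.9% of the counts. All 5 Sox6 transcripts are complete coding forms. Over complete coding transcripts, Sox5 was 0.438 times Sox6 in replicate 2 and 0.602 times in replicate 1, so that Sox6 was the higher of the pair in both libraries.

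**Figure D3:**
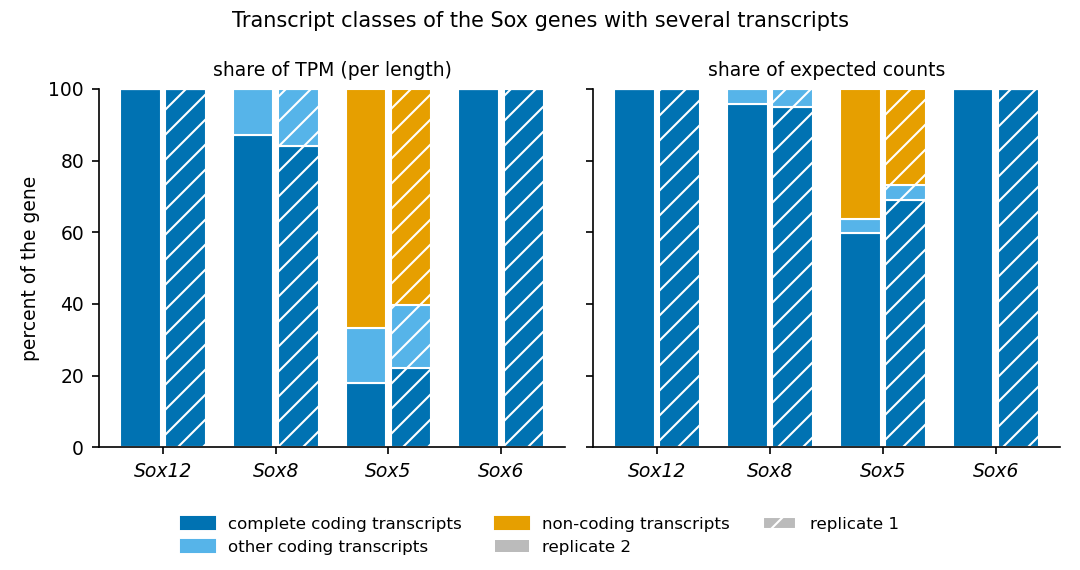
Share of each gene in complete coding, other coding and non-coding transcripts, as a percent of the gene's TPM (left) and of its expected counts (right), for the 4 Sox genes with more than 1 transcript, with replicate 2 as plain bars and replicate 1 as hatched bars. In Sox5, non-coding transcripts take 66.8% of TPM in replicate 2 and 60.4% in replicate 1, against 36.3% and 26.8% of counts, and in Sox12 and Sox6 they take none.

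Sox6 kept its total level while the estimated mix of its transcripts differed between the libraries. Sox6-204 held 42.47% of the gene's TPM in replicate 2 and 30.96% in replicate 1. Sox6-205 held 18.94% in replicate 2 and 27.34% in replicate 1, Sox6-202 held 17.43% and 23.70%, and Sox6-203 held 21.15% and 18.0%, in the same order. These transcripts share most of their exons and differ at their first exons and in length, so the shares are estimates with no error given for them here. Of the other genes, Sox8-201 held 87.10% of the TPM of Sox8 in replicate 2 and 84.15% in replicate 1, the shorter Sox8-202 holding the rest. Sox12-202 held 99.63% of the TPM of Sox12 in replicate 2 and 90.13% in replicate 1. The other 6 genes had 1 transcript each.

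Sox6-204 and Sox6-205 begin far apart in the gene, and their promoters are shown because the estimated share of one was higher in replicate 2 and of the other lower. Sequences are from RefSeq for GRCm38.p6 and run 5′ to 3′, 250 bases before to 50 after the start site. Capitals mark the motif CG, which reads the same on both strands.
Sox6-204 (chr7:116038695-116038994, - strand): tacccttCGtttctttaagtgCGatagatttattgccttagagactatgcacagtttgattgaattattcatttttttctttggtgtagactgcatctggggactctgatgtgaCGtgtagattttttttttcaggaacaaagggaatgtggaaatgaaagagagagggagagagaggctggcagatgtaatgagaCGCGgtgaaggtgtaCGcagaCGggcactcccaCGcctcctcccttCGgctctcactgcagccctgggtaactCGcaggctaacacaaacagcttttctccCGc
Sox6-205 (chr7:115824661-115824960, - strand): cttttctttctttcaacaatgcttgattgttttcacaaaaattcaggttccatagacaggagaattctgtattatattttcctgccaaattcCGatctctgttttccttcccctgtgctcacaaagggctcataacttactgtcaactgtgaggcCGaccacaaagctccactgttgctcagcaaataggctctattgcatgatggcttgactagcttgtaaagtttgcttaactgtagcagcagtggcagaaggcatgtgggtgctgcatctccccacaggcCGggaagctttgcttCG

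The promoter of Sox6-204 held 11 CG pairs and 47.0% G and C, and that of Sox6-205 held 4 CG pairs and 45.0% G and C. That of Sox6-202, whose share was also lower in replicate 2, held 13 CG pairs and 63.3% G and C. A relation of CG pairs to the shares was not tested. A CG pair occurred in 94.6% of 32544 promoters of this length, with a median of 7 pairs. Of the 10 genes, 8 had a promoter entry (Sox9 and Sox10 had none), and the entry of Sox5 begins with Sox5-204, a transcript listed at 0 TPM in both libraries.

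Sox21 (ENSMUSG00000061517.8, chr14:118233232-118237030, 1 exon), a B2 factor that counteracts B1 factors and lets progenitors differentiate, was at 5.99 TPM in replicate 2 and 5.48 TPM in replicate 1 (5.74 ± 0.361 TPM, SD, n = 2). It was the lowest of the set in both libraries, near the middle of all protein-coding genes (50.6% lay below its mean). Sox2 (ENSMUSG00000074637.6, chr3:34650405-34652461, 1 exon), the B1 factor that keeps neural progenitors undifferentiated, was at 13.43 TPM in replicate 2 and 8.43 TPM in replicate 1 (10.9 ± 3.54 TPM, SD, n = 2). Sox2 over Sox21 was 2.24 in replicate 2 and 1.54 in replicate 1. The deposited Sox2 transcript is 2457 bases long, against 2057 bases in the later release used for coordinates, and TPM rests on the deposited length.

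In order of mean TPM the genes ran Sox11, Sox4, Sox9, Sox5, Sox12, Sox8, Sox2, Sox10, Sox6 and Sox21. The first 5 places and the last were the same in both libraries. Neighbours in that order were taken as apart where both libraries gave the same sign and the mean log2 gap exceeded its SD. The largest gap lay between Sox4 and Sox9, at 2.21 in replicate 2 and 2.13 in replicate 1. Sox8 and Sox2 were not apart (log2 gaps of -0.35 in replicate 2 and 0.73 in replicate 1), nor were Sox10 and Sox6 (0.41 and -0.56).

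The comparison of the groups asked how much message of each kind the tube held at a stage when neurons are being made and gliogenesis begins. Mean TPM per gene was 167.07 in replicate 2 and 130.19 in replicate 1 for group C, 18.24 and 15.76 for group E, 15.33 and 16.70 for group D, 5.99 and 5.48 for group B2, and 13.43 and 8.43 for group B1, with replicate 2 first in each pair. Group C exceeded every other group in both libraries, while the order of E and D differed between them. Groups B1 and B2 were each a single gene here.

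Group C over group B1 was 3.64 in replicate 2 and 3.95 in replicate 1 as a log2 difference (3.79 ± 0.22, SD, n = 2), a 13.9-fold difference. Group C over group E was 3.20 and 3.05 in replicate 2 and replicate 1 (3.12 ± 0.11), and group C over group D was 3.45 and 2.96 (3.20 ± 0.34). Each of these differences was many times its SD between libraries. Without its highest gene, Sox11, and with Sox9 and Sox5 left out likewise, group C over group B1 was still 2.81 and over group E 2.82. With Sox1 and Sox3 counted in group B1, group C over B1 was 5.21.

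Group E over group B1 was 0.44 in replicate 2 and 0.90 in replicate 1 (0.67 ± 0.33). Without Sox9 the mean was -0.01, with Sox8 and Sox10 both below Sox2 in replicate 2, and in replicate 1 Sox8 above Sox2 and Sox10 below it. Group D over group B1 was 0.19 in replicate 2 and 0.99 in replicate 1 (0.59 ± 0.56), a mean close to its SD. Over complete coding transcripts it turned to -1.07 in replicate 2 and -0.23 in replicate 1, and Sox2 was then above the mean of Sox5 and Sox6. Group E over group D was 0.25 in replicate 2 and -0.08 in replicate 1 (0.08 ± 0.24), a difference within the spread between libraries. Over complete coding transcripts, group E exceeded group D by 1.47 in replicate 2 and 1.06 in replicate 1.

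**Figure D4:**
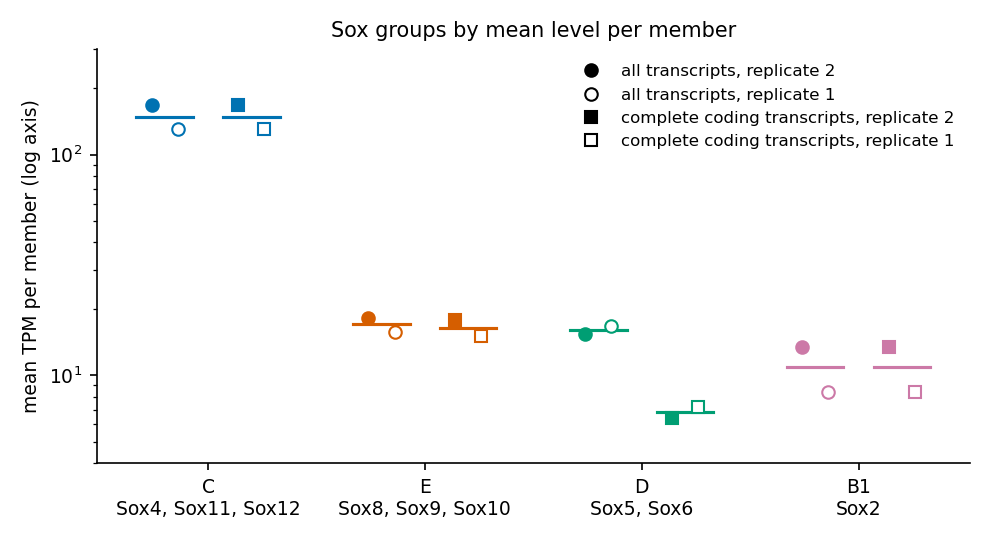
Mean TPM per gene of Sox groups C, E, D and B1 on a log axis, from all transcripts (circles) and from complete coding transcripts alone (squares), with replicate 2 filled, replicate 1 open and their mean as a bar. Group C lies at 130.19 TPM or more in either form, and group D drops to 6.40 TPM in replicate 2 and 7.21 TPM in replicate 1 when non-coding and partial transcripts are left out.

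Over all 20 Sox genes measured, the summed level was 644.33 TPM in replicate 2 and 513.92 TPM in replicate 1, and the 10 genes described here made up 94.05% and 94.4% of it. Group C alone gave 77.79% and 76.0%, with Sox11 at 51.99% and 49.82%. Of the other 10 Sox genes, 5 reached 1 TPM in both libraries. The B1 genes Sox1 (0.76 TPM in replicate 2 and 0.83 TPM in replicate 1) and Sox3 (0.48 and 0.53 TPM) stayed under it, so Sox2 was the highest B1 gene in both libraries. In B2, Sox14 was at 6.44 and 7.53 TPM, above Sox21 in both libraries. The D gene Sox13 was at 4.28 and 3.15 TPM. The F genes of blood vessels were at 13.92 and 10.03 TPM (Sox18), 7.08 and 3.92 TPM (Sox17) and 5.18 and 2.68 TPM (Sox7). Sox15 and Sox30 were at 0.09 TPM or less, and Sry had 0 counts in both libraries, under the floor of 3 counts.

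For each gene with 1 library on each side, the ratio of replicate 2 to replicate 1 was taken from rounded expected counts with library sizes scaled by TMM, a method that centres most genes on no difference. It compares these pups and no condition, and the 95% intervals are exact (Clopper-Pearson) and cover counting error only. Sox10 was the 1 gene of 10 that was at least 1.5-fold higher in replicate 2, as were 10.9% of the 17623 genes whose mean count was 10 or more. At least 1.5-fold lower were 0 of 10, against 8.61%, so that 1 of 10 lay that far apart in either direction, against 19.5%, and 0 of 10 lay 2-fold apart, against 8.93%. These shares are near the background, so the set did not stand apart. The median ratio of the 10 genes was 1.07.

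Sox10 had 463 counts in replicate 2 and 323 in replicate 1, a ratio of 1.82 (interval 1.58 to 2.10). Sox2, with 474 and 403 counts, lay just under the same fold at 1.49 (1.31 to 1.71). Sox11 (1.23, 1.21 to 1.24), Sox4 (1.18, 1.15 to 1.21) and Sox9 (1.11, 1.05 to 1.19) were higher in replicate 2 by less, with intervals above 1. Sox8, with 415 counts in replicate 2 and 728 in replicate 1, was lower in replicate 2 under TMM (0.724, 0.640 to 0.817) and not under spike-in scaling (1.06, 0.934 to 1.19). Sox5, with 697 and 1128 counts, was also lower under TMM (0.784, 0.713 to 0.863) and higher under spike-in scaling (1.14, 1.04 to 1.26). Under TMM, the intervals of Sox12 (0.918 to 1.08), Sox6 (0.858 to 1.03) and Sox21 (0.885 to 1.19) included 1. Under spike-in scaling, the intervals of Sox12, Sox6 and Sox21 all lay above 1. Whether a difference was detected in these genes therefore depended on the scaling.

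Scaling by the spike-ins raised every log2 ratio by 0.54, a factor of 1.46. The order of the 10 genes is the same by construction, but 5 of them were then at least 1.5-fold higher in replicate 2. So were 7809 of the 17623 genes whose mean count was 10 or more, and 46.7% of these lay that far apart in either direction. Of the 10 intervals, 9 lay above 1. The directions of Sox12 and Sox6, slightly below 1 under TMM, were likewise above 1 under spike-in scaling (1.45 and 1.37).

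**Figure D5:**
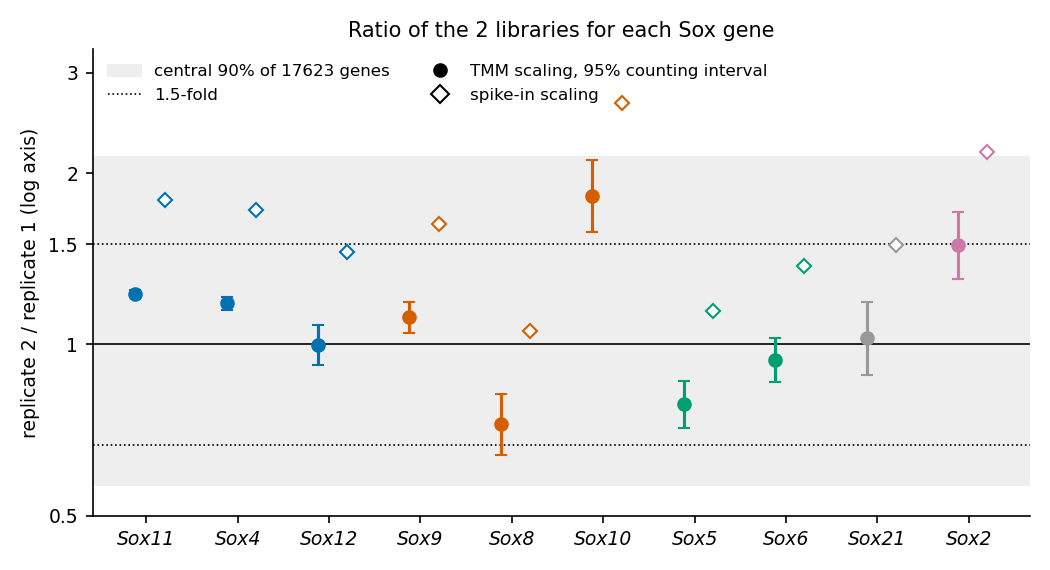
Ratio of replicate 2 to replicate 1 for the 10 Sox genes on a log axis, as filled points with 95% counting intervals under TMM scaling and as open diamonds under spike-in scaling, with the central 90% of 17623 genes shaded and 1.5-fold marked by dotted lines. Sox10 (1.82) alone lies beyond 1.5-fold under TMM scaling with Sox2 (1.49) just inside it, and all 10 filled points lie in the shaded band. The band is for TMM scaling and does not apply to the diamonds, since spike-in scaling shifts all genes by the same factor of 1.46.

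Markers of some cells beside the tube differed in the same direction as Sox10. The list for Schwann cells and neural crest, which use Sox10, summed to 80.49 TPM in replicate 2 and 35.87 TPM in replicate 1. Most of each sum was Ngfr, at 60.39 TPM in replicate 2 and 32.33 TPM in replicate 1. Of the list, 5 of 6 genes were at 1 TPM or more in replicate 2 and 3 of 6 in replicate 1. The Schwann cell precursor cadherin gene Cdh19 had 112 counts in replicate 2 and 0 in replicate 1. The sensory ganglion list, whose ganglia hold Sox10-positive satellite cells, summed to 149.36 TPM in replicate 2, with 6 of 6 genes at 1 TPM, and to 2.39 TPM in replicate 1, with 0 of 6. The oligodendrocyte lineage list moved less, at 118.06 TPM in replicate 2 and 100.87 TPM in replicate 1, with 7 of 8 genes at 1 TPM in each. Of its genes, Olig1 (40.31 and 49.37 TPM) was lower in replicate 2 under TMM scaling (0.766) and above 1 under spike-in scaling (1.12). Their part in the Sox10 ratio was not tested.

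Cartilage, which uses Sox9, Sox5 and Sox6, had a marker list at 26.72 TPM in replicate 2 and 13.37 TPM in replicate 1. Col2a1, also made by other embryonic cells, led it at 21.19 and 8.91 TPM. Next were Col11a2 (3.76 TPM in replicate 2 and 2.95 TPM in replicate 1) and Col9a1 (1.06 and 0.57 TPM). Acan, Comp and Hapln1 were under 1 TPM and Matn1 was at 0 counts in both libraries. The astroglia list, cells that use Sox9, was at 453.85 TPM in replicate 2 and 423.86 TPM in replicate 1, with 7 of 8 genes at 1 TPM in each and Gfap under it. Of these 8 genes, 2 were at least 1.5-fold lower in replicate 2 and 0 higher. They were Aqp4, the water channel gene, with 269 counts in replicate 2 and 1347 in replicate 1 (0.254, and 0.370 under spike-in scaling), and the filament gene Gfap with 5 and 36 counts (0.176 and 0.257). Lists for meninges and fibroblasts (977.87 TPM in replicate 2 and 44.23 TPM in replicate 1, 6 and 4 of 6 genes at 1 TPM), endothelium (184.5 and 78.95 TPM, 6 of 6 in each) and microglia (142.78 and 80.56 TPM, 6 of 6 in each) were higher in replicate 2. The skeletal muscle list was lower there (20.73 and 39.71 TPM, 4 of 5 in each). Their part in the ratios of the Sox genes was not tested.

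For the highest gene of groups C, E, D and B1, the genes of the marker lists nearest to it were found by Euclidean distance over log2(TPM + 1) in the 2 libraries, among 78 genes. Nearest to Sox11 were the neuronal genes Dcx (distance 0.099, with 318.58 TPM in replicate 2 and 268.42 TPM in replicate 1), Elavl4 (0.231) and Snap25 (0.537). Nearest to Sox2 were the progenitor filament gene Nes (0.020, with 13.23 and 8.43 TPM), Pecam1 (0.173) and Pdgfra (0.359). Nearest to Sox9 were Fgfr3 (0.190), C1qb (0.423) and Esam (0.506), and nearest to Sox5 were Mbp (0.426), Notch1 (0.546) and C1qa (0.634). With 2 libraries, nearness means a like level in each and nothing more, as endothelial and microglial genes among these neighbours show.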

How the data were processed

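The members, lists and alternatives were chosen with earlier results of these data known. The authors used the mm10 genome and mouse GENCODE release 4, per the README texts they deposited. No source used here names the aligner, the quantifier or the strand setting. The authors deposited, for each library on its own, expected counts that are not normalised, TPM scaled over all rows, FPKM, posterior mean TPM (a score here) and each transcript's share of its gene in percent, per the file headers.

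Rows that name no gene held 2.29% of counts in replicate 2 and 3.31% in replicate 1, nearly all of them counts of spike-ins, and were left out of library sizes. Symbols and 1-based coordinates came from GENCODE release 21 for GRCm38 (42462 of 43346 gene rows matched). Expected counts were rounded for ratios, with TMM from edgeR 4.0.16 in R 4.3.3, and this step was tested on simulated data. DESeq2 1.42.0 gave size factors for an alternative. Other steps used Python 3.11.15, pandas 2.3.3, SciPy 1.17.1 and matplotlib 3.10.9. With 1 library on each side of a ratio there is no test. The labels' protocols name mirVana extraction and a Smart-seq protocol. Reads of amplified RNA are not independent molecules, so intervals and floors cover counting error only. The rule for named genes took all members and other Sox genes, the 3 highest genes of each marker list and those under 1 TPM in both libraries, the nearest genes, and transcripts of at least 10% of a member's TPM. Cdh19 and Aqp4 are outside that rule and were picked with their values in view. Some genes of the marker lists are not reported here.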

Additional observations from a re-analysis of the deposited data

How the results depend on the processing

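All 10 genes reached 5 TPM in both libraries, and all 10 reached 1 TPM over complete coding transcripts alone. The count was also 10 with a threshold of 1 in FPKM or in posterior mean TPM. At 0.5 TPM and in each library alone, the count of 10 follows from the main result and adds nothing to it. Group C stayed above B1, D and E under every alternative. Posterior mean TPM and a pseudocount of 1 moved no group difference by as much as 1 SD. FPKM differs from TPM by a constant factor in each library. It therefore cannot change a difference taken within a library and does not bear on stability. The 5 TPM filter left out no gene, and with 2 libraries leaving out either cannot move a mean by 1 SD, so neither bears on stability. All log2 values follow. Summing over genes instead of averaging gave 5.38 for C over B1, 2.26 for E over B1, 1.59 for D over B1, 3.79 for C over D and 0.67 for E over D, since the groups differ in size. The median gene gave 0.27 for E over B1, 3.38 for C over E and -0.32 for E over D, a reversal. E over D ran over -0.08 to 0.25 with either library left out. The next alternatives were added after seeing the data. Complete coding transcripts alone gave -0.65 for D over B1, a reversal, 4.44 for C over D and 1.27 for E over D. Adding Sox1, Sox3 and Sox13 to their groups gave 5.21 for C over B1, 2.09 for E over B1, 1.58 for D over B1, 3.63 for C over D and 0.51 for E over D. Leaving out the highest gene of each group of several gave 2.81 for C over B1, 2.82 for C over E, and reversals for E over B1 (-0.01) and D over B1 (-0.25). Genes at least 1.5-fold apart between the libraries numbered 1, and 5 under spike-in totals, 2 by deposited TPM (Sox10 and Sox2) and 0 at 2-fold. Under spike-in totals the ratios of Sox5 (1.14) and Sox8 (1.06) reversed. The causes were not tested, other than those that the alternatives' construction gives. No paired analysis was possible because there is 1 group. Counts of 323 to 474 limit Sox10 and Sox2, and 2 libraries limit every SD.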

Other observations

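Of the 8 non-coding genes named after Sox genes that were looked up in the tables, Sox1ot had the most counts. It had 40 counts (0.54 TPM) in replicate 2 and 81 counts (0.81 TPM) in replicate 1. Sox5os1 had 0 counts in replicate 2 and 6 in replicate 1, Sox5os3 had 1 and 3, Sox5os2 and Sox5it each had 0 and 3, and Sox6os had 0 and 1. Sox2ot, a non-coding gene that overlaps Sox2 on the same strand, had no matching row, so no level is given for it. Sox5os4 and Sox5os5 had 0 counts in both libraries. The antisense genes within Sox5 therefore held few reads beside the 252.7 counts in replicate 2 and 301.9 counts in replicate 1 of the gene's own non-coding transcripts.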
